A study of Mus musculus with 6 samples.

Results

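The integrated stress response and the unfolded protein response were followed here through 33 genes: 3 sensors, 5 transcription factors, 11 targets of the ATF4 type, and 14 chaperones and quality-control factors of the endoplasmic reticulum (ER). The genes were chosen by symbol from textbook membership of the pathways, with earlier results of these data known. All 33 were among the 24041 genes of the count table, and all 33 were among the 14451 genes with enough counts to be tested. The RNA came from mouse cerebral cortex cells that took up plasmids by electroporation (transfer of DNA with electric pulses) and were sorted by green fluorescent protein (GFP), and it was sequenced with a low-input method. Both groups carried GFP, 1 group with wild-type PRPF6 and the other with a mutant PRPF6 (3 libraries each), and no group went without a PRPF6 plasmid. PRPF6 is a protein of the tri-snRNP, a building block of the spliceosome. The labels do not give the mutation, the species or promoter of the plasmid, the age of the animals, or whether libraries came from separate animals, so p-values measure no more than the spread of these samples, part of which may be technical.

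Cells meet misfolded protein in the ER with 3 sensors in its membrane. PERK (Eif2ak3) phosphorylates the translation factor eIF2, which slows protein synthesis but favours translation of the transcription factor ATF4. IRE1 (Ern1) splices Xbp1 mRNA into its active form, and ATF6 is cut in the Golgi to free a transcription factor. ATF4 switches on genes of amino acid supply and, with CHOP (Ddit3), of cell death, while ATF6 and spliced XBP1 switch on ER chaperones. In the developing cortex this response is known to be active in progenitors and to bear on the timing of neurogenesis. Counts per gene show neither eIF2 phosphorylation, nor Xbp1 splicing, nor ATF4 protein.

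Promoters of pathway genes can carry sequence elements known to be bound by its transcription factors, and they were searched here for those of the ATF6 and XBP1 branch and of the ATF4 branch. RefSeq (GRCm38.p6) gave windows of 300 bases, 250 before to 50 after a start site, for 30 of the 33 genes, and Atf6, Hyou1 and Manf had none. The ER stress response element (ERSE) was searched on both strands as CCAAT, any 9 bases, then CCACG. It was present in 7 of 12 ER chaperone windows and in 0.119% of all 32851 windows. Among other pathway genes, described further below, 1 of 15 windows of ER folding enzymes held it. So did 2 of 19 windows of genes of ER-associated degradation and of the ATF6 and XBP1 pathways. No window of the sensors, transcription factors or ATF4-type targets held it. The stretches that hold it in the 7 ER chaperone windows are printed here in gene direction, 5′ to 3′, with its fixed letters in capitals. Those of Calr and Creld2, and the second one of Hsp90b1, lie on the opposite strand and so read CGTGG, 9 bases, ATTGG.
Hspa5 (chr2:34772015-34772053, plus strand): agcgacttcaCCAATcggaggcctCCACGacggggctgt
Pdia6 (chr12:17266481-17266519, plus strand): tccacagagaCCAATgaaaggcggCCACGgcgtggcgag
Canx (chr11:50325790-50325828, minus strand): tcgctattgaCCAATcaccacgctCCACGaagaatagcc
Dnajc3 (chr14:118937817-118937855, plus strand): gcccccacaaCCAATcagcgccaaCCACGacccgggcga
Calr (chr8:84847065-84847103, minus strand): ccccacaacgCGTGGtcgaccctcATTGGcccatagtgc
Creld2 (chr15:88819510-88819548, plus strand): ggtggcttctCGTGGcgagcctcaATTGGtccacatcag
Hsp90b1 (chr10:86705523-86705666, minus strand): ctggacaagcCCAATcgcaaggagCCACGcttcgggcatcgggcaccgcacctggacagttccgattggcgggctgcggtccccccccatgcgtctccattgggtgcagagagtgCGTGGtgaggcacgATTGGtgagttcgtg

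ATF4 binds, with C/EBP proteins, a composite element (CARE), searched here on both strands as TGATGNAA. It was present in the windows of 5 of the 11 ATF4-type targets (Aars, Asns, Chac1, Slc7a11 and Trib3) and in those of Nupr1 and Herpud1. Over all genes with a window 4.51% held it, and 3.97% of all windows did. Being short, it turns up more often than ERSE in promoters of any kind. Asns, Chac1, Nupr1 and Slc7a11 are shown because all their matches lie before the start site, with the element in capitals apart from its free base. In Chac1, Nupr1 and Herpud1, and in the second match of Slc7a11, it lies on the opposite strand and so is printed as its reverse complement. The window of Herpud1, which encodes an adaptor of ER-associated degradation, held both a CARE and ERSE-II (ATTGG, any base, CCACG), an element found in 0.0365% of all windows.
Asns (chr6:7693215-7693242, minus strand): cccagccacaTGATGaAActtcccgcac
Chac1 (chr2:119351039-119351066, plus strand): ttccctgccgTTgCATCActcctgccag
Nupr1 (chr7:126625563-126625590, minus strand): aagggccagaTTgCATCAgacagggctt
Slc7a11 (chr3:50443643-50443689, minus strand): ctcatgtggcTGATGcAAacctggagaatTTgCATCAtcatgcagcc
Herpud1 (chr8:94386307-94386397, plus strand): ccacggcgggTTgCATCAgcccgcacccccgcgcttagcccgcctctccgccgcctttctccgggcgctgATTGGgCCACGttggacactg

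**Figure D1:**
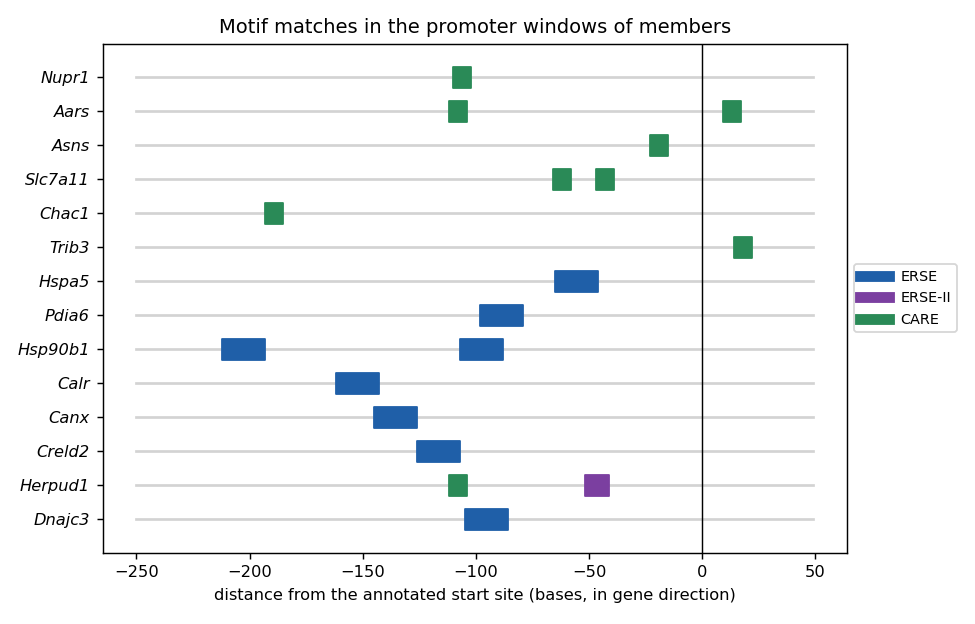
Position of ERSE, ERSE-II and CARE matches (bars, to scale) in the 300-base promoter windows (grey lines) of the 14 genes with a match; the x axis is the distance from the annotated start site in bases. The ERSE matches lie in 7 ER genes, and the CARE matches in 5 ATF4-type targets, Nupr1 and Herpud1.

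The core bound by XBP1 and ATF6, searched on both strands as TGACGTGG, was found in no member's window and in 0.676% of all windows. Neither an ERSE nor a CARE was found in the windows of Eif2ak3, Ern1, Atf4, Xbp1, Ddit3 and Cebpb. A match describes these letters in the window and is not evidence of binding, and no match speaks only of these letters in this stretch.

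The 6 libraries held 45115122 to 60600617 counts, and 1 count was worth 0.0164 to 0.0228 CPM (counts scaled to a common library size, with TMM factors). Markers of cortical cells were present in every library: radial glia markers (14 genes) summed to 2305 to 3479 CPM with wild-type and 3569 to 5929 CPM with mutant PRPF6, and excitatory neuron markers (12 genes) to 3430 to 4668 and 1813 to 3508 CPM. Some libraries stood apart in cells outside the neural lineage. Wild-type replicate 3 was highest in 11 of 13 red blood cell markers and 13 of 15 meningeal fibroblast markers (summed 17140 and 2022 CPM, against 81.9 to 2872 and 108 to 353 CPM elsewhere). Mutant replicate 2 was highest in all 10 microglia markers (summed 980 CPM, against 43.3 to 346 elsewhere). In bulk RNA, fewer cells of a type and less RNA per cell cannot be told apart.

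Mutant and wild-type PRPF6 were compared to ask whether the stress pathways differed between cells carrying them. None of the 33 genes passed (0 of 33, lowest adjusted p = 1.00, quasi-likelihood test of edgeR adjusted by Benjamini-Hochberg over all genes), and over all tested genes 0% passed. At an unadjusted p under 0.05 stood 0 of the 33 genes with edgeR, limma-voom or DESeq2, where edgeR had 3.38% of all tested genes. The lowest unadjusted p of a member was 0.105, for Phgdh. Groups did not overlap for 1 of 33 genes, Dnajb9, against 9.14% of all genes. That gene was lower in every mutant library (4.54% of all genes were), and no member was higher in every mutant library (4.6% of all genes were). The fitted difference was above 0 in 21 members and below 0 in 12 (49.8% of all genes above 0 and 50.2% below), with a median log2 difference of 0.049 against −0.0013 over all genes. That split did not hold in every fit. It was 16 above and 17 below without mutant replicate 1 (median −0.0014). With the radial glia score as a covariate it was 13 above and 20 below (median −0.048). That score, a mean over the radial glia markers, was higher in every mutant library than in every wild-type library. A fit with it cannot tell cell mix from an effect of PRPF6.

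**Figure D2:**
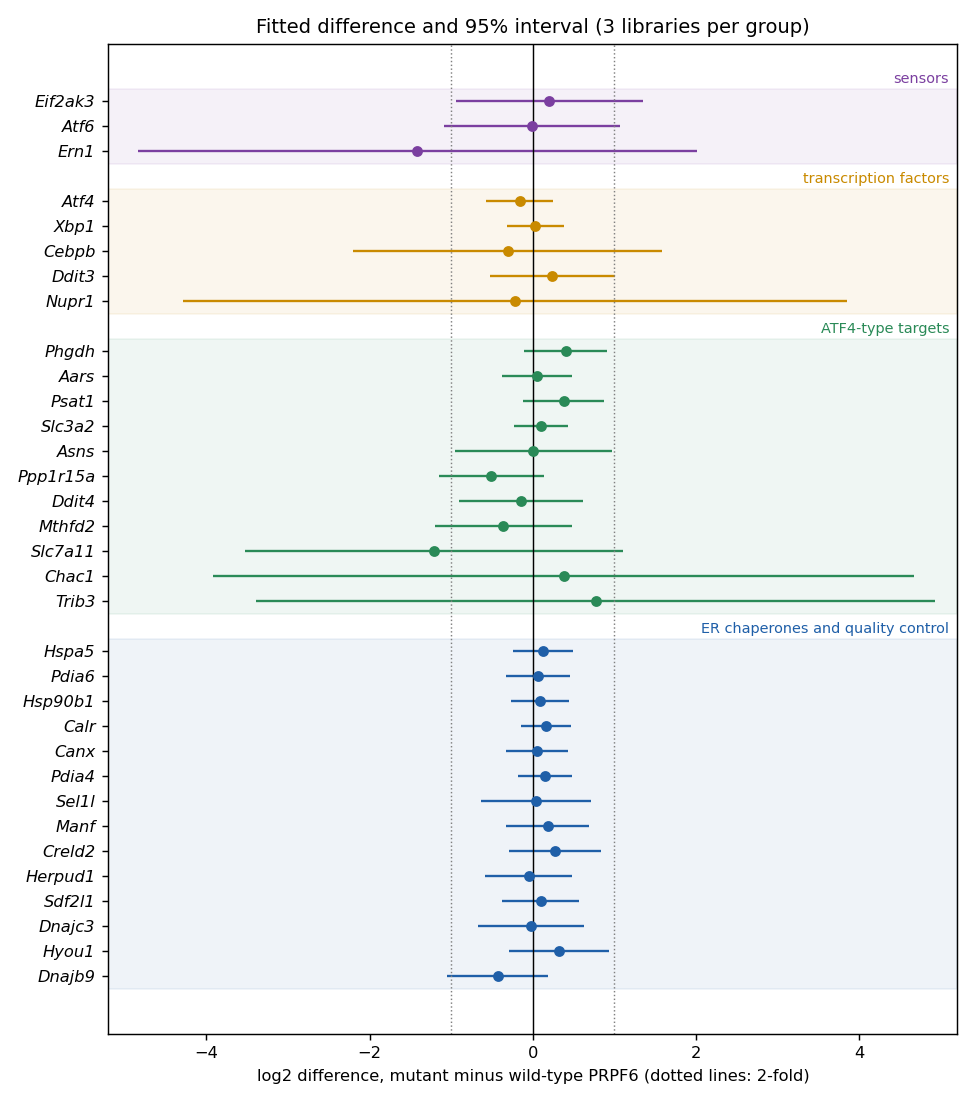
Fitted log2 difference (mutant minus wild-type PRPF6, points) with its 95% interval (bars) for the 33 genes, by role and ordered by level; dotted lines mark 2-fold. Every interval includes 0, and those of the ER chaperones are narrow. Those of Ern1, Nupr1, Chac1, Trib3, Slc7a11, Cebpb and Atf6 reach past 2-fold on both sides.

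How large a difference these libraries would leave room for depended on the gene. The 95% interval lay within 2-fold in either direction for 21 of the 33 genes, among them 13 of 14 ER chaperones and quality-control factors, 6 of 11 ATF4-type targets, 2 of 5 transcription factors and 0 of 3 sensors. It lay within 1.5-fold for 11 genes. Over all tested genes it lay within 2-fold for 6595 of 14451.

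The 3 sensors varied widely between libraries of a group, and Ern1 was also low, at a mean of 5.98 CPM over the 6 libraries. Eif2ak3 (chromosome 6, 70844515 to 70905245, GRCm38), which encodes PERK, was at 39.1, 8.33 and 28.4 CPM with wild-type and at 26.7, 26.1 and 34.3 CPM with mutant PRPF6, the values here and in what follows being those of replicates 1, 2 and 3 in turn. The low value was that of wild-type replicate 2, and the groups overlapped (log2 difference 0.20, 95% interval −0.94 to 1.35). Without that library the sign turned, to −0.22, and it was −0.037 in a fit that held red blood cell markers as a covariate. Atf6 (chromosome 1, 170704674 to 170867771) was at 14.6, 41.5 and 23.7 CPM with wild-type and at 15.3, 39.9 and 24.2 CPM with mutant PRPF6. Its 3 values in the groups were nearly matched, replicate by replicate (−0.0056, 95% interval −1.08 to 1.07). Over all tested genes, deviations from the group means correlated weakly or negatively between libraries of the same number (0.054, 0.061 and −0.26).

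Ern1 (chromosome 11, 106394650 to 106487852), which encodes IRE1, was at 20.5, 2.81 and 2.78 CPM with wild-type and at 0.0172, 5.74 and 4.04 CPM with mutant PRPF6. The first value came from 956 counts and the lowest, in mutant replicate 1, from 1 count. The log2 difference was −1.41 with a 95% interval of −4.84 to 2.01, and it became 0.23 without wild-type replicate 1. Among tested genes of similar level (within 0.5 of its mean log2 CPM), 91.9% had a smaller spread within groups than Ern1. For Eif2ak3 that share was 93.1% and for Atf6 87.9%.

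Of the 5 transcription factors, Xbp1 and Atf4 varied least between libraries. Atf4 (chromosome 15, 80255184 to 80257541) was at 188, 174 and 231 CPM with wild-type and at 176, 150 and 205 CPM with mutant PRPF6. In both groups the third library was highest, and the groups overlapped (log2 difference −0.16, 95% interval −0.57 to 0.25). Xbp1 (chromosome 11, 5520659 to 5525893) was at 131, 145 and 141 CPM with wild-type and at 159, 124 and 143 CPM with mutant PRPF6. Its highest library exceeded its lowest by 1.27-fold (log2 difference 0.031, 95% interval −0.32 to 0.38), and only 12.6% of genes of similar level had a smaller spread.

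Ddit3, which encodes the pro-apoptotic factor CHOP, was at 13.4, 14.5 and 19.4 CPM with wild-type and at 24.1, 15.4 and 16.4 CPM with mutant PRPF6. Mutant replicate 1 was the highest library and the other mutant values lay inside the wild-type range (log2 difference 0.24, 95% interval −0.52 to 1.00). Its counts were not whole in all 6 libraries, so RSEM shared some of its reads with other genes. Its exons overlap those of a second annotated gene of the same symbol (105 bases, same strand). On the opposite strand they overlap Mars (68 bases) and Gm4189 (13 bases). Which of these genes shared the reads was not tested. Nupr1, a small stress-induced chromatin protein, was at 0, 1.33 and 3.82 CPM with wild-type and at 1.70, 2.25 and 0.479 CPM with mutant PRPF6. A count of 0 in wild-type replicate 1 allows up to 0.0644 CPM (3 counts, counting error only). The 95% interval of its log2 difference ran from −4.28 to 3.85.

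Cebpb, a bZIP factor of the stress response that is also a factor of myeloid cells, was at 6.68, 37.9 and 35.7 CPM with wild-type and at 10.4, 47.3 and 7.0 CPM with mutant PRPF6. High and low libraries occurred in both groups (log2 difference −0.31, 95% interval −2.20 to 1.58), and 97.95% of genes of similar level had a smaller spread. The 3 libraries with high Cebpb were also the 3 with the highest microglia marker sums, which were 127, 346 and 263 CPM with wild-type and 43.3, 980 and 51.6 CPM with mutant PRPF6. Without mutant replicate 2, the highest in both, the log2 difference of Cebpb was −1.62 (unadjusted p = 0.0677, adjusted p = 0.723, edgeR), and with any other library left out it lay between −0.77 and 0.11. The part of microglia in the Cebpb values was not tested.

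ATF4-type targets showed no common direction: 7 had a fitted difference above 0 and 4 below, with a median log2 difference of 0.046. The serine synthesis genes Phgdh and Psat1 had the smallest p-values of those above 0. Phgdh (chromosome 3, 98313170 to 98339990), which encodes the first enzyme of serine synthesis from a glycolytic intermediate, was at 240, 390 and 252 CPM with wild-type and at 447, 325 and 394 CPM with mutant PRPF6. Mean CPM was 294 ± 83.0 against 389 ± 60.9 (SD, n = 3 per group), and the log2 difference was 0.40 ± 0.22 (SE; edgeR, unadjusted p = 0.105, adjusted p = 1.00). Psat1 (chromosome 19, 15904678 to 15947337), the aminotransferase of the next step, was at 168, 250 and 162 CPM with wild-type and at 237, 215 and 302 CPM with mutant PRPF6 (0.38 ± 0.22, SE). In both genes wild-type replicate 2 lay within the mutant range and the other wild-type libraries lay below it. Without that library the log2 differences were 0.66 and 0.60 (unadjusted p = 0.0118 and 0.0207, adjusted p = 1.00 for both).

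Both enzymes are known to be enriched in radial glia and astrocytes, and the radial glia markers also had higher sums with mutant PRPF6. Those markers summed to 2871, 3479 and 2305 CPM with wild-type and to 5929, 3569 and 4836 CPM with mutant PRPF6, and all 14 had fitted differences above 0. Wild-type replicates 1 and 3 were the 2 lowest libraries in the marker sum, in Phgdh and in Psat1. In a fit with the radial glia score of each library as a covariate, Phgdh was at −0.13 and Psat1 at −0.11 on the log2 scale. Every mutant library had a higher score than every wild-type library, so a difference in cell mix and an effect of PRPF6 cannot be told apart in this fit. Mthfd2, a mitochondrial folate enzyme that uses serine carbon, had a wild-type mean of 36.1 ± 8.88 CPM and a mutant mean of 28.1 ± 13.1 CPM (SD, n = 3 per group). Without mutant replicate 3, its highest mutant library, the log2 difference moved from −0.36 to −0.80 (edgeR, unadjusted p = 0.0438, adjusted p = 1.00).

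**Figure D3:**
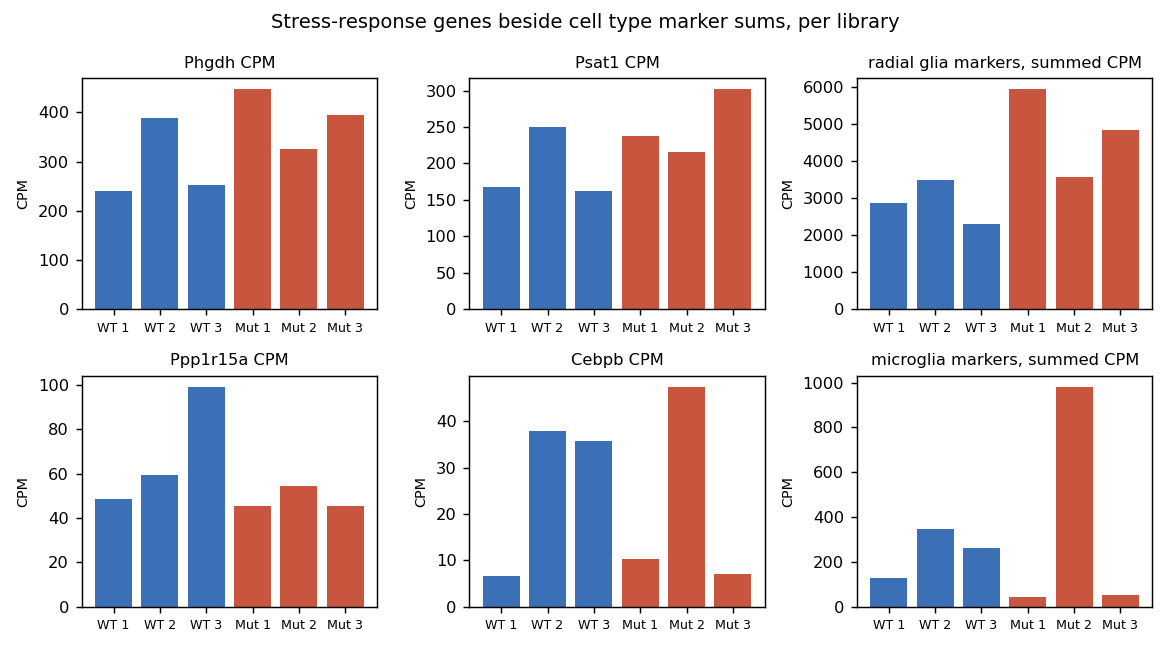
CPM per library (bars, linear axes from 0) of Phgdh, Psat1, Ppp1r15a and Cebpb, with the summed CPM of 14 radial glia and 10 microglia markers; blue is wild-type and red mutant PRPF6. Phgdh and the radial glia sum are both highest in mutant replicate 1, and Cebpb and the microglia sum are both highest in mutant replicate 2.

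Ppp1r15a (chromosome 7, 45522916 to 45526268), which encodes the GADD34 subunit that ends eIF2 phosphorylation, was at 48.6, 59.3 and 98.9 CPM with wild-type and at 45.6, 54.4 and 45.5 CPM with mutant PRPF6. Wild-type replicate 3 was far above the other libraries (log2 difference −0.51 ± 0.28, SE; edgeR, unadjusted p = 0.106, adjusted p = 1.00). Without it the difference was −0.15. With the radial glia score as a covariate, which itself separates the groups, the difference was 0.14. Wild-type replicate 3 was also the library with most red blood cell and meningeal RNA and was highest in 5 of 10 immediate early genes, and their part in the Ppp1r15a value was not tested. Without wild-type replicate 1 instead, the log2 difference was −0.70 (unadjusted p = 0.0337, adjusted p = 1.00).

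Slc3a2, the heavy chain shared by several amino acid exchangers, was at 173, 218 and 186 CPM with wild-type and at 206, 208 and 206 CPM with mutant PRPF6, and 9.98% of genes of similar level had a smaller spread. Aars, the alanine tRNA synthetase, was at 192, 200 and 280 CPM with wild-type and at 203, 246 and 245 CPM with mutant PRPF6 (log2 difference 0.046, 95% interval −0.38 to 0.48). Asns, asparagine synthetase, had near-equal means, 64.2 ± 25.9 CPM for wild-type and 64.4 ± 32.7 CPM for mutant libraries (SD, n = 3 per group). Its libraries nonetheless ran from 34.5 CPM in wild-type replicate 3 to 102 CPM in mutant replicate 1. Ddit4, an inhibitor of mTORC1, averaged 51.7 ± 23.2 CPM in wild-type libraries and 46.9 ± 8.90 CPM in mutant ones (SD, n = 3 per group).

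Slc7a11, Chac1 and Trib3 had the lowest mean CPM of the ATF4-type targets. Slc7a11, the cystine transporter, was at 3.54, 9.33 and 2.36 CPM with wild-type and at 2.62, 3.46 and 0.502 CPM with mutant PRPF6, from counts that were not whole in all 6 libraries (log2 difference −1.21, 95% interval −3.53 to 1.10). Chac1, which degrades glutathione, ranged from 0.0164 CPM, a single count in wild-type replicate 2, to 6.41 CPM in wild-type replicate 3. It was at 6.21 CPM in mutant replicate 1, 0.10 in mutant replicate 2 and 2.62 in mutant replicate 3. Trib3, a pseudokinase that feeds back on ATF4, was at 1.78, 0.312 and 1.82 CPM with wild-type and at 5.32, 1.35 and 0 CPM with mutant PRPF6. Mutant replicate 1 was thus highest for Trib3 and Ddit3 and near the top for Chac1. Of the 11 ATF4-type targets, mutant replicate 1 was highest in 3 and lowest in 1 (Mthfd2). Mutant replicate 3 had 0 counts of Trib3, which allows up to 0.0684 CPM.

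The ER group held the 4 genes of highest mean CPM among the 33 and had the lowest median spread of the 4 roles, but its members ran from 20.0 CPM (Dnajb9) to 1148 CPM (Hspa5). Of its 14 genes 11 had a fitted difference above 0 and 3 below, with a median log2 difference of 0.095 and none below an unadjusted p of 0.147. Hspa5 (chromosome 2, 34771970 to 34777547), which encodes BiP, the Hsp70 chaperone that holds the sensors inactive, was at 1016, 1160 and 1120 CPM with wild-type and at 1444, 1037 and 1115 CPM with mutant PRPF6. Mutant replicate 1 was above all other libraries, and the other mutant libraries lay within the wild-type range (log2 difference 0.13, 95% interval −0.24 to 0.49). Without mutant replicate 1 it was −0.031. Calr, calreticulin, a lectin chaperone, was at 671, 604 and 633 CPM with wild-type and at 789, 651 and 691 CPM with mutant PRPF6 (log2 difference 0.16, 95% interval −0.15 to 0.47). Pdia6, a disulfide isomerase that also restrains IRE1, was at 987, 804 and 691 CPM with wild-type and at 839, 773 and 981 CPM with mutant PRPF6. Hsp90b1, the ER form of Hsp90, was at 783, 892 and 681 CPM with wild-type and at 910, 731 and 871 CPM with mutant PRPF6, so that the groups covered much the same range (log2 difference 0.092, 95% interval −0.26 to 0.45).

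Per kilobase of annotated exon, mean levels over the 6 libraries were 272 CPM for Hspa5, 234 for Calr, 226 for Pdia6 and 201 for Hsp90b1. These 4 stood above the other 29 genes, and each has an ERSE in its window. An ERSE did not go with a high level throughout: Dnajc3, which has one, was at 9.15 and Creld2 at 68.0, while Pdia4, whose window has none, was at 118. The highest ATF4-type target was Phgdh at 137 CPM per kilobase, and Atf4 itself was at 79.4. Ern1 was at 0.732 and Slc7a11 at 0.261. The 7 ER genes with an ERSE had log2 differences from −0.022 to 0.28 (median 0.092), and the 5 with a window but no ERSE from −0.43 to 0.15 (median 0.041).

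Dnajb9, an ER J-protein that returns BiP to IRE1 and a target of spliced XBP1, was the 1 member whose groups did not overlap. It was at 19.4, 25.2 and 24.0 CPM with wild-type and at 17.2, 17.8 and 16 CPM with mutant PRPF6, from counts that were not whole in 3 libraries. The log2 difference was −0.43 ± 0.27 (SE; edgeR, unadjusted p = 0.147, adjusted p = 1.00), and it lay between −0.53 and −0.36 when any 1 library was left out. With 4.54% of all genes having every mutant library below every wild-type library, 1 such gene in 33 is not a result about the set.

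Creld2 and Hyou1 had the largest positive differences in the ER group. Creld2, a secreted factor with isomerase activity, was at 93.3, 85.6 and 73.3 CPM with wild-type and at 139, 75.6 and 90.9 CPM with mutant PRPF6 (log2 difference 0.28, 95% interval −0.29 to 0.84). Mutant replicate 1 alone lay above the wild-type range, and without it the difference was −0.015. Hyou1, an exchange factor of BiP, was at 25.1, 34.2 and 31.4 CPM with wild-type and at 31.6, 32.4 and 48.9 CPM with mutant PRPF6, where mutant replicate 3 was the high one. Canx (calnexin), Pdia4 (a disulfide isomerase), Manf (a secreted survival factor) and Sdf2l1 (a partner of ER J-proteins) had log2 differences of 0.049, 0.15, 0.18 and 0.098. Dnajc3 (p58IPK, an inhibitor of eIF2 kinases), Herpud1 and Sel1l (the adaptor of the main degradation ligase) were at −0.022, −0.052 and 0.041.

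Mutant replicate 1 was the highest library in 7 of the 14 ER genes and in 12 of the 33 members, against 3360 of all 14451 tested genes, and wild-type replicate 3 was the lowest in 5 of the 14. Without mutant replicate 1 the ER group had 8 genes above 0 and 6 below (median log2 difference 0.013), and without wild-type replicate 3 also 8 and 6 (median 0.0023). Mutant replicate 1 had the highest radial glia sum and the lowest excitatory neuron sum (1813 CPM), and wild-type replicate 3 the lowest radial glia sum. These libraries also had the highest sums of 7 interneuron markers, 732 CPM in mutant replicate 1 and 853 CPM in wild-type replicate 3. The interneuron sums were 141 to 398 CPM elsewhere. With the radial glia score as a covariate 5 ER genes were above 0 and 9 below (median −0.12), but that score itself separates the groups. The part of cell mix in the ER values was not tested.

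**Figure D4:**
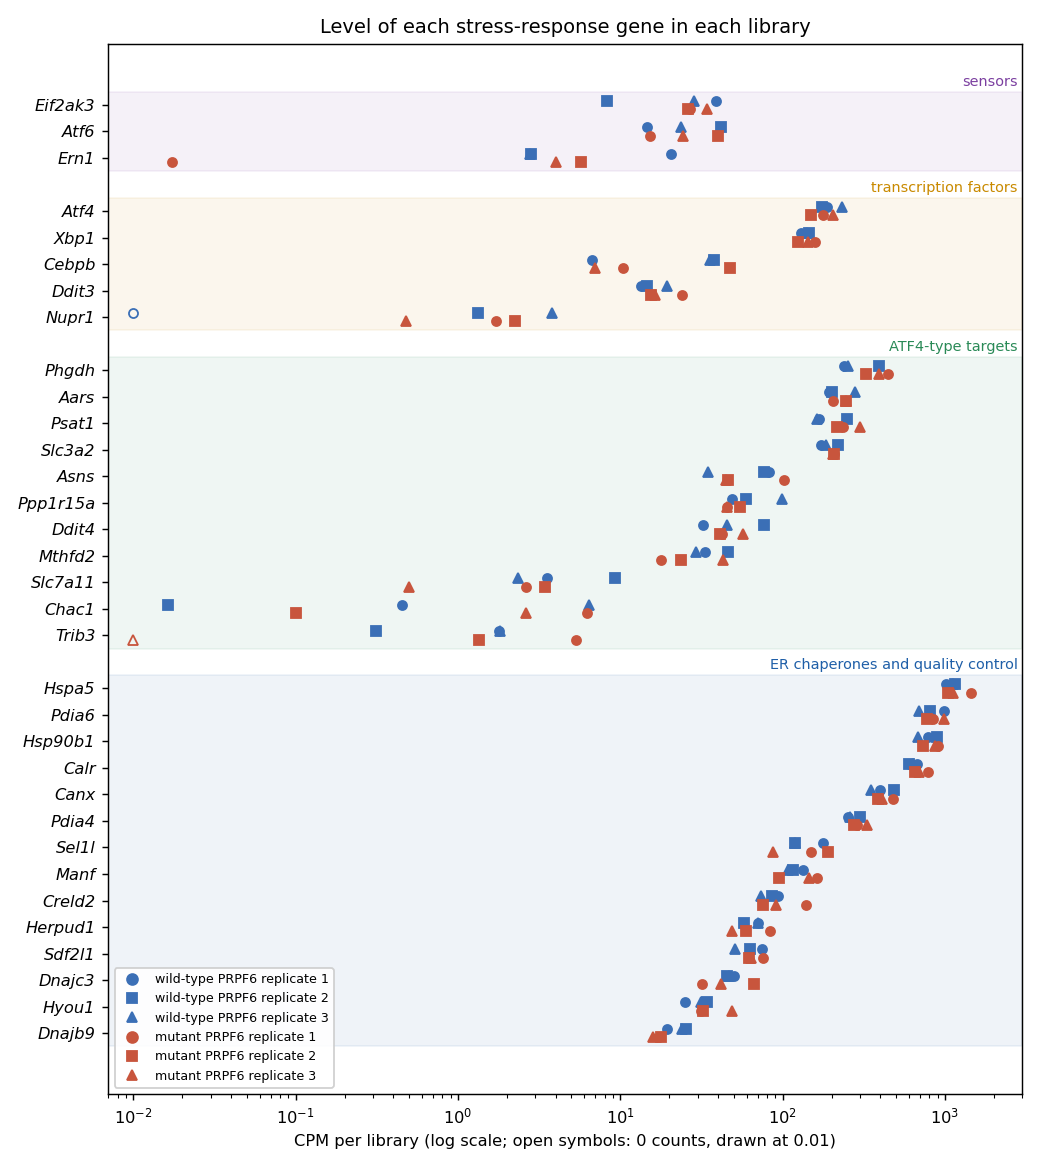
CPM of each of the 33 genes in each library (log axis; blue wild-type, red mutant PRPF6; symbols mark replicates; open symbols are 0 counts). Hspa5 lies between 1016 and 1444 CPM, while Trib3, Chac1, Nupr1 and Ern1 scatter over a wide range within both groups.

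The range between libraries differed from role to role. The highest library exceeded the lowest by more than 2-fold in 3 of 3 sensors, 2 of 5 transcription factors, 7 of 11 ATF4-type targets and 2 of 14 ER genes (Dnajc3 and Sel1l). Over all tested genes 55.7% did so. The median SD of log2 CPM within a group was 0.84 for sensors, 0.32 for transcription factors, 0.49 for ATF4-type targets and 0.22 for ER genes, against 0.42 for all tested genes. Low-level genes have larger spreads in any case, and the roles differ in level. The share of similar-level genes with a smaller spread was 87.9% to 93.1% for sensors and 3.31% (Dnajb9) to 91.2% (Sel1l) for ER genes. It was 12.6% to 97.95% for transcription factors and 9.98% to 96.0% for ATF4-type targets.

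**Figure D5:**
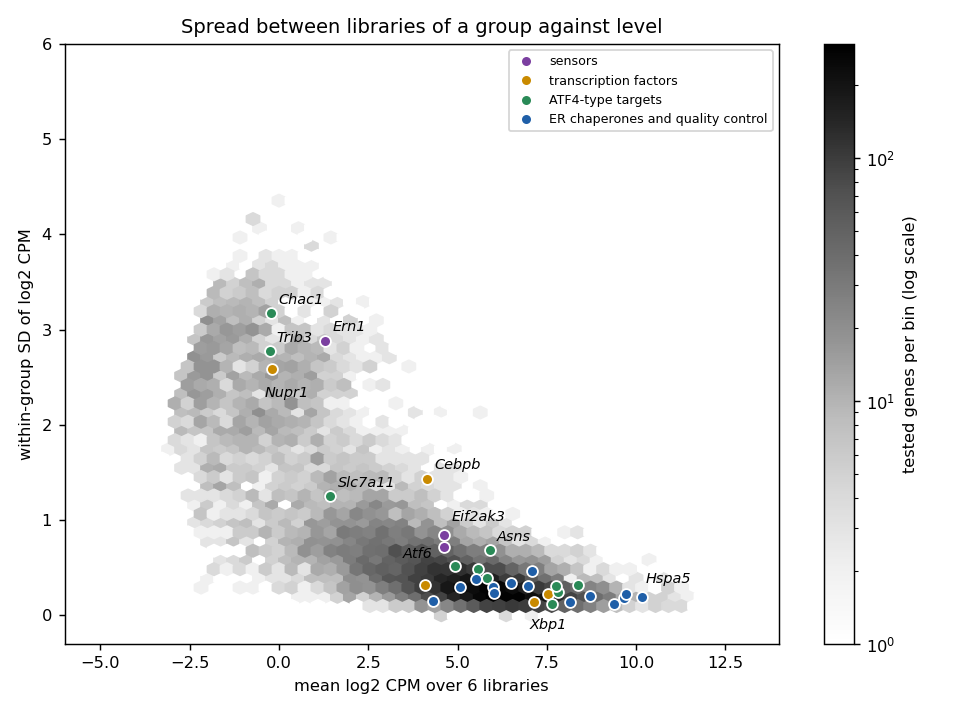
Within-group SD of log2 CPM against mean log2 CPM for all 14451 tested genes (grey bins) and the 33 stress-response genes (coloured points). Most ER chaperones lie in the lower right, at high level and small spread, and Cebpb, Eif2ak3 and Asns lie above most genes of their level.

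A further 75 genes of the same pathways were looked at in the same fit, 74 of them tested. None passed the edgeR test over all genes. Every mutant library lay above every wild-type library for 3 of the 74 (Syvn1, Gdf15 and Gpt2) and below for 1 (Vldlr). The shares of all tested genes were 4.6% and 4.54%. At an unadjusted p under 0.05 stood 3 that were higher and 1 that was lower with mutant PRPF6, against 2.18% and 1.2% of all tested genes, and 38 had a fitted difference above 0 and 36 below (median log2 difference 0.019). By list, the other eIF2 kinases and eIF2 factors had 4 above 0 and 6 below, the other ATF4-type targets 12 and 19, the other ER folding enzymes 7 and 5, and genes of ER-associated degradation and of the ATF6 and XBP1 pathways 15 and 6. Fgf21, a stress-induced hormone, had 0 counts in all 6 libraries and was not tested.

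Syvn1 (chromosome 19, 6046576 to 6053712), which encodes HRD1, the ubiquitin ligase of ER-associated degradation that works with Sel1l, had the smallest p of the 74. It was at 66.2, 65.4 and 68.0 CPM with wild-type and at 144, 91.9 and 95.6 CPM with mutant PRPF6. The wild-type libraries differed little among themselves and each mutant library exceeded them (log2 difference 0.73 ± 0.21, SE; edgeR, unadjusted p = 0.00783, adjusted p = 1.00). The difference was 0.50 to 0.85 when any 1 library was left out (edgeR, unadjusted p 0.0061 to 0.0275). With the radial glia score as a covariate, which itself separates the groups, the unadjusted p of Syvn1 was 0.182 (edgeR). Its counts were not whole in all 6 libraries, so they depend on how RSEM shared reads. Its partner Sel1l was at 177, 120 and 120 CPM with wild-type and at 149, 191 and 87.6 CPM with mutant PRPF6.

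Gdf15 and Sesn2, a stress hormone and a sensor of leucine, are targets of both ATF4 and p53. Gdf15 had 1, 8 and 1 counts with wild-type and 138, 124 and 54 counts with mutant PRPF6, the latter being 2.38, 2.49 and 1.23 CPM. The groups did not overlap, and 2 of the 3 wild-type libraries were under the 3 counts that a count of 0 allows (unadjusted p = 0.0131, adjusted p = 1.00, edgeR). Sesn2 was at 12.6, 13.8 and 16.5 CPM with wild-type and at 54.5, 15.3 and 29.5 CPM with mutant PRPF6. Mutant replicate 2 lay within the wild-type range and mutant replicate 1 was highest (log2 difference 1.21 ± 0.45, SE; unadjusted p = 0.0262, adjusted p = 1.00). Without mutant replicate 1 it was 0.65 (unadjusted p = 0.128).

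Of genes lower with mutant PRPF6, Vldlr, a reelin receptor that ATF4 can induce, was at 56.5, 45.4 and 43.3 CPM with wild-type and at 36.6, 35.0 and 29.9 CPM with mutant PRPF6. The groups did not overlap (log2 difference −0.52 ± 0.21, SE; edgeR, unadjusted p = 0.0404, adjusted p = 1.00), and the difference was −0.59 to −0.39 with any 1 library left out (unadjusted p 0.0461 to 0.145). Eif2b3, a subunit of the eIF2 exchange factor, was at 67.3, 59.8 and 40.7 CPM with wild-type and at 48.0, 37.8 and 34.7 CPM with mutant PRPF6 (unadjusted p = 0.0939, adjusted p = 1.00, edgeR). Eprs, the glutamyl-prolyl tRNA synthetase, was at 435, 319 and 280 CPM with wild-type and at 243, 297 and 286 CPM with mutant PRPF6 (unadjusted p = 0.13, adjusted p = 1.00, edgeR). In both, the groups overlapped.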

How the data were processed

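The authors deposited expected counts per gene, made with RSEM on mm10 per the submitters' processing notes. Annotation, aligner, strand setting and filters were not stated in the labels or notes, so reads of overlapping genes cannot be separated. Per library, 8.15% to 9.15% of gene values had a fractional part. Expected counts were rounded, filtered with filterByExpr (14451 of 24041 genes kept), scaled with TMM and tested with edgeR 4.0.16 (robust quasi-likelihood, two-sided, group only; R 4.3.3), with Benjamini-Hochberg adjustment over all tested genes and a threshold of 0.05. The steps were run on simulated counts with less spread between libraries than these data have. That run does not show what size of difference could be found here. Alternatives used limma 3.58.1 (voom), DESeq2 1.42.0, other scalings and filters, covariates and left-out libraries. Intervals are 95% from the quasi-likelihood fit. Counts without molecular identifiers are not independent molecules, so limits from a count of 0 (3 counts) cover counting error only.

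Per-library values are given for all sensors and transcription factors and, among ATF4-type targets and ER genes, for the 4 of smallest unadjusted p and the 3 of highest CPM, and for Slc3a2, Chac1, Trib3, Sel1l and parts of Asns, added after their values were seen. Of other pathway genes, the 3 of smallest p per direction were named. Members, lists and alternatives were chosen with earlier results of these data known. Coordinates and exon lengths come from GENCODE M21 (GRCm38), and promoters from RefSeq. Protein sequences were not used here.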

Additional observations from a re-analysis of the deposited data

How the results depend on the processing

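The count of members past the test, 0 of 33, was 0 under all 16 alternatives and at an adjusted p under 0.1, and the lowest adjusted p of a member in any of them was 0.722. Over all tested genes the count was 6 with DESeq2 and 0 under each of the other alternatives. At an unadjusted p under 0.05 the counts were 0 under every alternative that kept all libraries. They ran from 0 to 2 higher (Phgdh and Psat1, without wild-type replicate 2) and from 0 to 1 lower (Ppp1r15a without wild-type replicate 1, Mthfd2 without mutant replicate 3) with 1 library left out, where 2.94%, 2.68% and 3.5% of all genes stood at that level in these 3 settings. The direction held under all 16 alternatives for 7 of 33 members: Atf4, Ddit3, Slc7a11, Mthfd2, Hyou1, Dnajb9 and Calr. The median log2 difference of the transcription factors, −0.16, became 0.41 with the red blood cell score and 0.33 with the radial glia score as a covariate, and that of the ER genes, 0.095, became −0.12 with the radial glia score; the cause was not tested. With the replicate number as a block, 0 members were called and 0 stood at an unadjusted p under 0.05. Deviations of same-numbered libraries correlated at 0.054, 0.061 and −0.26 for numbers 1, 2 and 3, but correlations over so few libraries cannot exclude pairing. These numbers are those of the sample titles. The deposited columns carry numbers that are not consecutive, and those too are the same in both groups. Whether a number marks a shared litter or day is not given in the labels, so the main fit did not treat libraries as pairs. With 3 libraries a group, the intervals of Ern1, Nupr1, Chac1, Trib3, Slc7a11 and Cebpb were the widest of the 33.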
